A study of Mus musculus with 6 samples.

Results

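Mitochondria make few of their own proteins, and most of the rest are built in the cytosol and pulled in through translocases. The genes described here encode that import machinery and the family of carriers that moves metabolites across the inner mitochondrial membrane, measured in hearts of wild-type and Rnd3 knockout mouse embryos. They were chosen by name. Each gene whose array probe sets carry a single platform symbol starting with Timm or Tomm is called an import gene (24 genes), and each one starting with Slc25a a carrier (44 genes), which makes 68 of the 18193 genes on the array. A gene with several probe sets is represented by the one with the highest mean log2 signal over all 6 arrays, so its brightness entered the choice and is given only as a description. Of the 68 members, 61 were bright enough to be tested, 22 import genes and 39 carriers. In the whole series 12712 genes were tested.

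As background, the TOM complex is the entry gate of the outer membrane. Proteins with a cleavable leader then pass through the TIM23 translocase, driven into the matrix by a motor that Timm44 holds at the channel, while the small TIM chaperones carry hydrophobic proteins across the intermembrane space to the TIM22 translocase. Members of the Slc25a family are themselves typical cargo of the TIM22 route, and they exchange ATP, phosphate, amino acids, carnitine esters and iron with the matrix. The heart depends on this exchange once its muscle respires.

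Each array holds heart RNA of embryos at E10.5 on the C57BL/6N background, 3 wild-type (WT) and 3 knockout (KO) arrays. The knockout is global, in all cells, and was made by a gene trap that interrupts Rnd3, also called RhoE. The embryos were 3 pairs of littermates, and the design text places death of the knockouts at this stage or shortly after it. No label says whether an array holds 1 heart or a pool, so p-values measure the spread between these arrays, which may be technical.

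The knockout was visible in Rnd3, at 909, 954 and 862 in WT and 5.89, 12.3 and 121 in KO. The cardiomyocyte list, with 10 of 10 markers tested, summed to signals of 248850 to 267290 in WT and 238670 to 260560 in KO, so the tissue carried heart muscle genes in both groups. Of these markers 7 had negative and 3 positive differences (median -0.11 on the log2 scale), where 43.8% of all tested genes were positive. The sums do not show whether muscle content was equal. Xist, the RNA that silences an X chromosome in female tissue, read 10251, 12474 and 11878 in WT but 539, 8884 and 28.4 in KO. On their brightest probe sets the Y-linked genes Eif2s3y, Kdm5d and Uty were higher on each KO array than on any WT array. The excess was least on KO array 2, where their signals were 793, 335 and 297. WT signals spanned 312 to 551 for Eif2s3y, 142 to 212 for Kdm5d and 105 to 192 for Uty. All these values, and Xist on the same arrays, lay above the low-signal limit of 44.5 to 52.8 described below. Xist lay above it on KO array 1 too, and below it on KO array 3. Whether an array mixes tissue of both sexes was not tested. Genotype and sex of the tissue therefore cannot be told apart. The ratio of 3' to 5' Gapdh signal, a sign of RNA integrity, was 1.09 to 1.13 in WT and 0.939 to 0.993 in KO, while the same ratio for Actb overlapped, at 2.35 to 2.62 and 2.22 to 2.54. Liver and yolk sac endoderm markers had negative differences in 7 of 7 tested genes, with sums over the 8 on the array of 1640 to 7624 in WT and 464 to 2130 in KO. Neuron markers summed to 1140 to 1318 and 866 to 991, with 2 positive and 3 negative differences. Only Crmp1 of them, lower in KO, passed the test described below. Macrophage sums were 837 to 930 in WT and 880 to 2123 in KO, and platelet sums 1368 to 1785 and 1742 to 2203. Of the macrophage markers 5 were positive and 1 negative. Only Lyz2 passed, while Csf1r had -0.02 and Adgre1 0.02. Of the platelet markers 3 were positive and 1 negative, and only Ppbp passed. Endothelial sums were 5190 to 5897 and 5616 to 6435, with 5 positive and 1 negative. The part of sex, RNA integrity and these cell types in the results below was not tested. In RNA of a whole tissue, fewer cells of a type and less RNA per cell cannot be told apart.

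Promoter sequences were matched from RefSeq (GRCm38.p6) for 55 of the 68 members, each 250 bases before to 50 bases after a gene's start. Both strands were searched for CCGGAAGT, the core bound by ETS factors such as GABPA, and for the NRF1 palindrome and the YY1 motif, which are known from promoters of mitochondrial genes. The ETS letters stood in 7 of 23 import promoters (30.4%), in 1 of 43 carrier promoters (2.33%) and in 3.89% of all 32851 promoters in the table. The NRF1 motif stood in 0 of the members' promoters and in 0.971% of all, and the YY1 motif only in that of Timm50 and in 0.633% of all. The median GC content was 60.0% for import, 59.7% for carrier and 52.7% for all promoters, and its part in these shares was not tested. No match overlapped one to another motif. A match is a description of letters and not a binding site. The 100 bases before the start are shown 5′ to 3′ for the tested members whose ETS match lies there and for the 3 members past the test that have an entry, so that the runs with and without the letters can be compared. Capitals mark the ETS letters or their reverse complement.
Timm23 (chr14:32201892-32201991, minus strand): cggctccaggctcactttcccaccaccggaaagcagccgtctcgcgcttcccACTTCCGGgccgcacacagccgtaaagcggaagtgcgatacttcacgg
Timmdc1 (chr16:38522664-38522763, minus strand): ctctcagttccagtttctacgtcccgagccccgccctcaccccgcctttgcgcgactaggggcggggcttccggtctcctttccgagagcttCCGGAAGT
Tomm70a (chr16:57121614-57121713, plus strand): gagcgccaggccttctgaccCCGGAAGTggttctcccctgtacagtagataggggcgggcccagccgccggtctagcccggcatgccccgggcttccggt
Slc25a20 (chr9:108662036-108662135, plus strand): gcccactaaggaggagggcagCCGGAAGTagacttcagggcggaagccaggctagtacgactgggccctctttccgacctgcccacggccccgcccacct
Timm17a (chr1:135313738-135313837, minus strand): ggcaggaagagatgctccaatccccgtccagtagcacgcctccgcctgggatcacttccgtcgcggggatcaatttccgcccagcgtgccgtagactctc
Timm44 (chr8:4275906-4276005, minus strand): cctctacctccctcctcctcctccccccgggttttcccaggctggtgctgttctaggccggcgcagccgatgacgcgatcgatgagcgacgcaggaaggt
Slc25a12 (chr2:71367756-71367855, minus strand): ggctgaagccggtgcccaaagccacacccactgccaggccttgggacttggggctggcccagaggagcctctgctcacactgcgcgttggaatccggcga
The matches start 48 bases before the start in Timm23, 79 in Slc25a20 and 80 in Tomm70a, and the one of Timmdc1 in this window ends at the base before it. The other import genes with the letters were Timm29, Timm10 and Timm10b, with matches outside the 100 bases shown, and Timm8a2, which was too dim to be tested and has matches starting 55 and 11 bases before its start. The 6 of the 7 that were tested had both signs. Timm10 and Timm10b had log2 fold changes of 0.30 and 0.21, and Timm23, Timm29, Timmdc1 and Tomm70a had -0.07, -0.23, -0.25 and -0.14. None of the 6 passed the test, nor did Slc25a20.

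Differences between KO and WT were tested with limma across all 12712 genes on log2 signals, with a Benjamini-Hochberg adjusted p of 0.05 as the threshold, and "rose" and "fell" are used only of genes past it. Fold changes are log2, KO minus WT, with limma's standard error (SE) and n = 3 per group. Over all tested genes 1.27% passed, 0.787% as higher and 0.488% as lower. Among the 22 tested import genes Timm17a and Timm21 rose and Timm44 fell, and 19 did not pass. Among the 39 tested carriers Slc25a12 rose, none fell and 38 did not pass. With counts of 3 and 1, neither share can be set firmly against the background. How many genes passed depended on the settings. Only 1 did when dim probe sets were kept, and 0 did when the probe sets of a gene were averaged. With each array centred on its median over all probe sets 83 genes passed, 67 higher and 16 lower. With centring on the median of the tested genes 312 passed, 253 higher and 59 lower, against 100 and 62 without centring.

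In the TIM23 translocase and its motor, 3 of 6 genes passed the test and they moved in both directions. Timm44, the peripheral protein that tethers the Hsp70 import motor to the channel, had signals of 4617, 4514 and 4887 in WT and 3333, 2059 and 2630 in KO. All KO arrays lay below all WT arrays, and KO array 2 was the lowest. It fell by 0.83 on the log2 scale (SE 0.14, adjusted p = 0.0360), to 0.562 of the WT level. The other Timm44 probe sets were lower too, one with 3720, 3727 and 3758 in WT and 2967, 1943 and 2395 in KO and the other with 899, 920 and 913 against 789, 518 and 833. These gave -0.64 (SE 0.13) and -0.38 (SE 0.16), so the 3 probe sets shared a direction without overlap between the groups, and the size of the difference varied.

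Timm17a, a channel-forming subunit, read 4495, 4519 and 4236 in WT against 5551, 6193 and 6572 in KO. It rose by 0.46 (SE 0.09, adjusted p = 0.0374), or 1.38-fold, with all KO arrays above all WT arrays. Its paralog Timm17b, which can take its place in the complex, had 3691, 3082 and 3271 in WT and 3113, 2798 and 3177 in KO. The groups overlapped and the difference was -0.14 (SE 0.10, adjusted p = 0.438), with a second probe set at 0.09 (SE 0.10). Timm21, which links the TIM23 translocase to the TOM complex and to respiratory chain assembly, had 804, 751 and 713 in WT and 993, 1483 and 1193 in KO. It rose by 0.68 (SE 0.14, adjusted p = 0.0474), or 1.6-fold. Timm23, the main channel subunit, read 9213, 9288 and 9838 in WT against 8790, 8800 and 9473 in KO, a difference of -0.07 (SE 0.07). Timm50, the receptor of the complex, had 1393, 1500 and 1409 in WT and 1309, 886 and 1599 in KO. Its KO values lay on both sides of the WT ones, at -0.22 (SE 0.18), and its 2 dimmer probe sets had -0.77 (SE 0.27) and -0.74 (SE 0.36).

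These 3 calls were lost when most single arrays were left out, as were most calls of the whole series. The 162 calls over all tested genes became 0, 0 and 4 without WT array 1, 2 or 3. Without KO array 1, 2 or 3 they became 917, 64 and 2. Without 1 WT array the sizes ran from -0.86 to -0.80 for Timm44, 0.43 to 0.48 for Timm17a and 0.64 to 0.72 for Timm21. Timm17a and Timm21 passed when KO array 1 was left out (adjusted p = 0.0112 and 0.00979) and missed the threshold without any of the other 5 arrays. Without WT array 1, 2 or 3 the adjusted p of Timm17a was 0.152, 0.186 and 0.120 and that of Timm21 0.163, 0.195 and 0.137. Without KO array 2 or 3 these values were 0.0558 and 0.137 for Timm17a, and 0.0734 and 0.137 for Timm21. Timm44 passed without KO array 1 (0.00384) or 2 (0.0432) and missed without KO array 3 (0.125) or WT array 1, 2 or 3 (0.152, 0.166 and 0.120). In the fit with Xist as a covariate all 3 missed the threshold at sizes of -1.02 for Timm44 (adjusted p = 0.0555), 0.42 for Timm17a (0.0923) and 0.84 for Timm21 (0.0625). Against the WT arrays, KO array 2 alone, the KO array with high Xist, gave -1.18, 0.49 and 0.97. The Xist fit weights KO arrays 1, 2 and 3 by 0.34, 0.87 and -0.21, so both readings rest largely on KO array 2. All 3 also missed, with the sign kept, when dim genes stayed in, when probe sets were averaged and when the variance had no intensity trend. Timm17a missed with centring over all probe sets (0.0624) and Timm21 with all probe sets tested singly (0.0607).

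**Figure D1:**
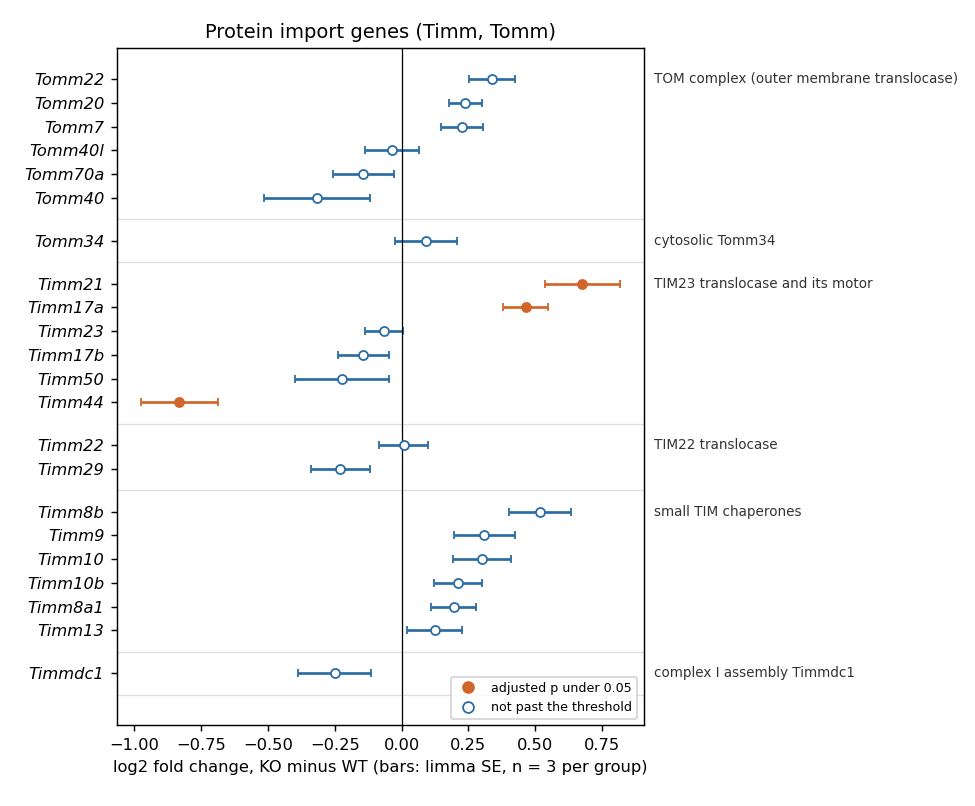
Log2 fold change, KO minus WT, of the 22 tested import genes, grouped by role. Points are limma estimates with SE bars (n = 3 per group), and filled points passed an adjusted p of 0.05. Timm21, Timm8b (not filled) and Timm17a lie furthest to the right and Timm44 at -0.83 on the left, and the 6 small TIM chaperones all lie above 0.

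The 6 tested small TIM chaperones, which escort membrane proteins through the intermembrane space, all had positive differences, from 0.12 to 0.52 with a median of 0.26, and none passed the test over all genes. For 4 of the 6 all KO arrays lay above all WT arrays, against 10.8% of all tested genes. Timm8b came closest, with 2900, 2798 and 3118 in WT and 3483, 4859 and 4390 in KO (0.52, SE 0.12, adjusted p = 0.0554). Timm10, which forms a chaperone ring with Timm9, read 2368, 2751 and 2667 in WT against 3152, 2815 and 3661 in KO (0.30, SE 0.11, adjusted p = 0.162). Timm9 gave 0.31 (SE 0.12), with 523, 440 and 451 in WT and 578, 567 and 603 in KO. A dimmer Timm9 probe set gave 0.11 (SE 0.20), with overlap between the groups. Timm8a1, the partner of Timm13 in a second ring and the counterpart of the human deafness-dystonia gene, gave 0.19 (SE 0.08), and its second probe set gave 0.46 (SE 0.11). Timm13 had 0.12 (SE 0.10) and Timm10b, a subunit at the TIM22 translocase, 0.21 (SE 0.09). All 4 probe sets of Timm10b were higher in KO, from 0.08 to 0.22, though not beyond their spread in each case. With Xist as a covariate, in a fit resting largely on KO array 2, Timm13 was at -0.07. On KO array 2 alone it was at -0.09. Timm8a2 was below the low-signal limit, set at the 40th percentile of each array, on all 6 arrays and was not tested.

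The pair of TIM22 translocase genes showed no common direction. Timm22, its channel, read 1952, 1926 and 2109 in WT against 2046, 1862 and 2114 in KO (0.01, SE 0.09). Timm29, which stabilises the complex, had 889, 808 and 746 in WT and 741, 667 and 674 in KO, all KO arrays just below all WT arrays (-0.23, SE 0.11, adjusted p = 0.267). A dimmer Timm29 probe set went the other way at 0.12 (SE 0.17). Timmdc1 shares the name but works in the assembly of respiratory complex I. Its signals were 1121, 1137 and 1300 in WT and 1223, 927 and 867 in KO (-0.25, SE 0.14).

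In the TOM complex none of the 6 tested genes passed, and 3 were positive and 3 negative. Tomm22, the central receptor, had 2751, 2937 and 2911 in WT and 3370, 3814 and 3704 in KO, with no overlap (0.34, SE 0.09, adjusted p = 0.0679). Its other probe set showed the reverse, also without overlap, at 2243, 1931 and 2319 in WT and 1616, 1478 and 1667 in KO (-0.44, SE 0.10). No direction can therefore be given for Tomm22, and the mean of both was -0.05. Tomm20, the receptor for leader peptides, read 19426, 20424 and 20811 in WT against 23892, 24310 and 23341 in KO (0.24, SE 0.06, adjusted p = 0.0743). Of its 6 probe sets 5 were higher in KO, from 0.14 to 0.50, and 1 was lower at -0.25 (SE 0.18). Tomm7, a small subunit, read 4734, 4943 and 5387 in WT against 5853, 5739 and 6020 in KO (0.23, SE 0.08). A further pair of its probe sets had 0.22 and 0.53, and a dim one with a wide spread had -0.87 (SE 0.74). Tomm40, the pore itself, had 1602, 1784 and 1841 in WT and 1756, 934 and 1667 in KO (-0.32, SE 0.20), where KO array 2 was the low one. Its paralog Tomm40l had -0.04 (SE 0.10). Tomm70a, the receptor for carrier proteins, had 3923, 3752 and 4336 in WT and 4188, 3088 and 3667 in KO (-0.14, SE 0.11), and its other tested probe sets had -0.09, 0.14 and -0.35. The cytosolic cochaperone Tomm34 read 798, 1013 and 943 in WT against 900, 1004 and 1018 in KO (0.09, SE 0.12). Tomm20l was below the limit on all 6 arrays.

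**Figure D2:**
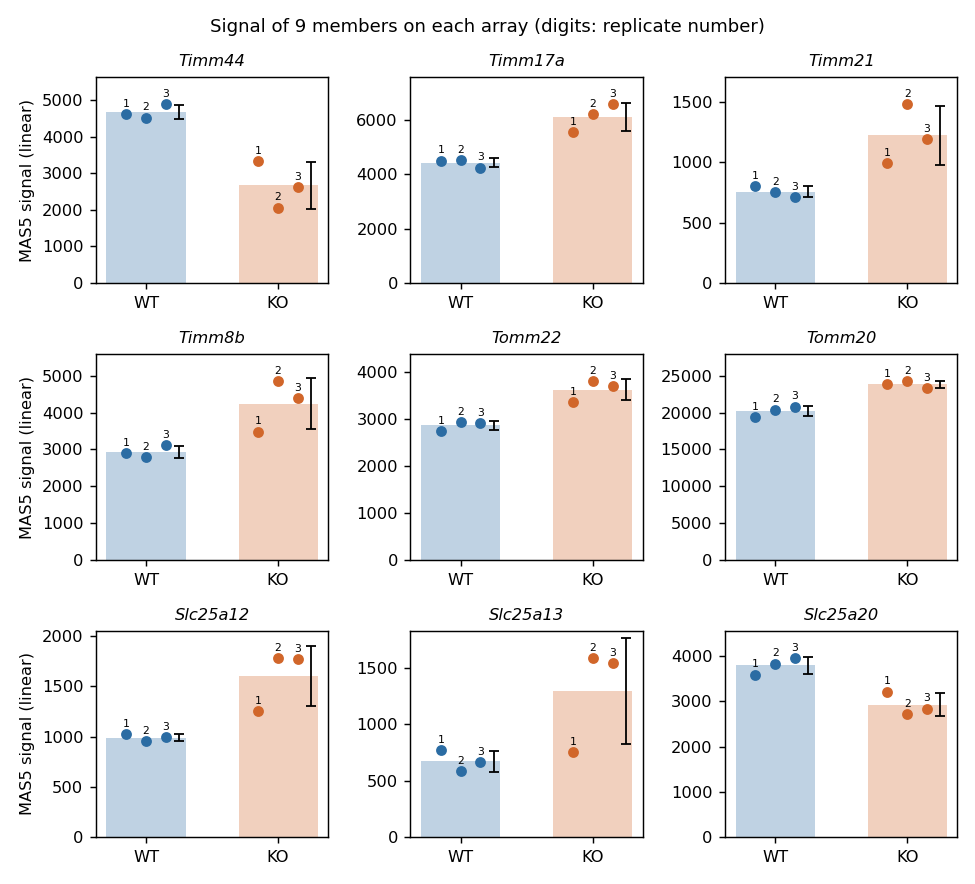
MAS5 signal on a linear axis from 0 for 9 members, with each array as a point marked by its replicate number, bars for the group mean and error bars for the SD (n = 3 per group). KO lies above WT on all arrays for Timm17a, Timm21, Timm8b, Tomm22, Tomm20 and Slc25a12 and below it for Timm44 and Slc25a20, and the KO arrays of Slc25a13 are split.

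Among the carriers, those for aspartate and glutamate had the largest differences. Slc25a12, also called aralar, passes aspartate out of the matrix in exchange for glutamate and serves the malate-aspartate shuttle. Its signals were 1024, 956 and 992 in WT and 1255, 1786 and 1769 in KO. All KO arrays lay above all WT arrays, with KO array 1 closest to them, and it rose by 0.68 (SE 0.14, adjusted p = 0.0446), or 1.6-fold. The 2 dimmer probe sets of Slc25a12 disagreed with each other, one with 238, 147 and 293 in WT and 203, 173 and 169 in KO (-0.26, SE 0.24) and one at 0.30 (SE 0.31). With the probe sets averaged the difference was 0.24 (adjusted p = 0.474). Slc25a13, or citrin, the paralog with the same exchange, read 773, 583 and 662 in WT against 755, 1592 and 1548 in KO. KO array 1 lay within the WT range and the other 2 KO arrays at over 1500, and the difference of 0.88 (SE 0.24, adjusted p = 0.0861) did not pass.

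Slc25a12 and Slc25a13 shared this split between KO array 1 and KO arrays 2 and 3, which was not particular to them. Over all tested genes KO array 1 was the KO array nearest the WT arrays, with correlations of log2 signals of 0.980 to 0.981. Those of KO array 2 were 0.970 to 0.9715 and those of KO array 3 0.974 to 0.975. Leaving out KO array 1 took the calls over all genes from 162 to 917. Without KO array 1 the adjusted p was 0.00427 for Slc25a12 (0.84) and 0.00368 for Slc25a13 (1.23). Without KO array 2 or 3 that of Slc25a12 was 0.0796 and 0.144, and without WT array 1, 2 or 3 it was 0.163, 0.190 and 0.123. With Xist as a covariate, in a fit resting largely on KO array 2, Slc25a12 had 0.68 (adjusted p = 0.0889), and KO array 2 alone gave 0.85. It also missed when dim genes stayed in (0.0603), when all probe sets were tested singly (0.0558) and when the variance had no intensity trend (0.206).

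None of the other tested amino acid carriers stood apart from its spread. Slc25a22 for glutamate had -0.16 (SE 0.20), Slc25a15 for ornithine 0.0018 (SE 0.10) and Slc25a38 for glycine 0.11 (SE 0.19). Slc25a44, for branched-chain amino acids, read 344, 294 and 331 in WT against 337, 298 and 330 in KO (-0.0036, SE 0.13), and its other probe sets had -0.05 and 0.37. Slc25a29, for basic amino acids, read 146, 164 and 200 in WT against 168, 142 and 162 in KO (-0.10, SE 0.19), with 3 other tested probe sets from -0.01 to 0.17. Slc25a18 had signals above the limit on just 3 arrays (0.26, SE 0.47).

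In the role of cofactor, nucleotide and carnitine transport, 11 of 11 genes were tested and none passed. Slc25a20, which brings acylcarnitines in for fatty acid oxidation, had the largest negative difference of the carriers. It read 3593, 3837 and 3964 in WT against 3215, 2720 and 2841 in KO (-0.38, SE 0.09, adjusted p = 0.0628). All KO arrays lay below all WT arrays on that probe set, while its other probe set had WT signals of 749, 780 and 731 and KO signals of 774, 810 and 718 (0.02, SE 0.11). Slc25a39, needed for glutathione uptake, read 14849, 14880 and 14143 in WT against 13309, 12603 and 13858 in KO (-0.14, SE 0.07, adjusted p = 0.265), and its other tested probe sets ran from -0.37 to 0.01. Slc25a36, for pyrimidine nucleotides, was lower on all 3 of its probe sets without overlap between the groups, at -0.16 (SE 0.09), -0.29 (SE 0.12) and -0.21 (SE 0.13). On the brightest of them the signals were 4917, 4661 and 4996 in WT and 4544, 4656 and 3884 in KO, so the separation there was narrow. Slc25a32, linked to folate and FAD, read 221, 227 and 218 in WT against 235, 212 and 202 in KO (-0.04, SE 0.15), against 0.36 (SE 0.23) for another probe set. Slc25a51, the NAD carrier, read 2264, 2110 and 1904 in WT against 2009, 2614 and 2024 in KO (0.07, SE 0.12), against 0.03 and -0.26 for its others. The remaining 6 ran from -0.11 for Slc25a26, of S-adenosylmethionine, to 0.31 for Slc25a17, a peroxisomal member.

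The energy carriers had small differences, and none passed. Slc25a4, the adenine nucleotide translocase of muscle, read 23354, 24644 and 24533 in WT against 26140, 26171 and 26301 in KO (0.12, SE 0.06, adjusted p = 0.292). The KO arrays lay close together above the WT arrays, at 1.08-fold. Slc25a5, the form of proliferating cells, read 19522, 19089 and 20682 in WT against 22473, 20194 and 22273 in KO (0.13, SE 0.07, adjusted p = 0.314), and its 8 probe sets ran from 0.02 to 0.28. Probe sets of Slc25a5 can take in signal from near-identical copies, since the gene table lists a pseudogene of it. Slc25a3, the phosphate carrier, had 16321, 16111 and 15205 in WT and 15302, 12658 and 16745 in KO (-0.10, SE 0.10). Of the calcium-regulated ATP-Mg carriers, Slc25a24 had 0.12 (SE 0.08), Slc25a23 0.11 (SE 0.14) and Slc25a25 -0.07 (SE 0.21).

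Slc25a11, the oxoglutarate-malate carrier and the other membrane step of the malate-aspartate shuttle, read 1822, 1694 and 1919 in WT against 2078, 2069 and 2084 in KO. Its KO arrays lay above all WT arrays, and the difference of 0.20 (SE 0.09, adjusted p = 0.238) did not pass. Slc25a10, for dicarboxylates, read 613, 639 and 711 in WT against 686, 596 and 503 in KO (-0.15, SE 0.13). The citrate carrier gene Slc25a1 had -0.12 (SE 0.12).

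Slc25a37, mitoferrin-1, which feeds iron to haem synthesis in red cell precursors, read 1203, 1411 and 1442 in WT against 2045, 1810 and 1178 in KO (0.28, SE 0.18, adjusted p = 0.407). The erythroid list had 9 of its 11 markers on the array. Its sums were 98820, 116630 and 114460 in WT and 117090, 104040 and 101150 in KO. KO array 1 was the highest for Slc25a37 and for this sum, where it lay just above the WT array at 116630. KO array 2 lay above all WT arrays for Slc25a37, at 1810, and its erythroid sum of 104040 lay within the WT range. The sum is made up mostly of the globins Hba-x, Hbb-y and Hbb-bh1, so it says little of dimmer markers. On KO arrays 1, 2 and 3 Epb42 read 245, 169 and 69.5 and Gata1 227, 170 and 114, in the order of Slc25a37. Alas2, at 606, 273 and 299, and Tfrc, at 6640, 4824 and 5358, had another order. The part of red cell content in the Slc25a37 difference was not tested. Slc25a28, mitoferrin-2 of other tissues, read 425, 334 and 353 in WT against 405, 305 and 336 in KO (-0.09, SE 0.15). Among the uncoupling-protein-like carriers Slc25a30 read 422, 520 and 417 in WT against 558, 612 and 486 in KO (0.29, SE 0.14, adjusted p = 0.263). Its other tested probe sets had 0.70 (SE 0.20) and -0.14 (SE 0.14). Slc25a14 read 169, 262 and 172 in WT against 187, 215 and 221 in KO (0.08, SE 0.20). Of the carriers with less defined cargo, Slc25a46, an outer membrane protein tied to mitochondrial fission, read 2480, 2318 and 2179 in WT against 2477, 2899 and 2468 in KO (0.17, SE 0.10). Slc25a45 read 132, 131 and 142 in WT against 126, 230 and 139 in KO (0.23, SE 0.24), where KO array 2 made the difference.

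**Figure D3:**
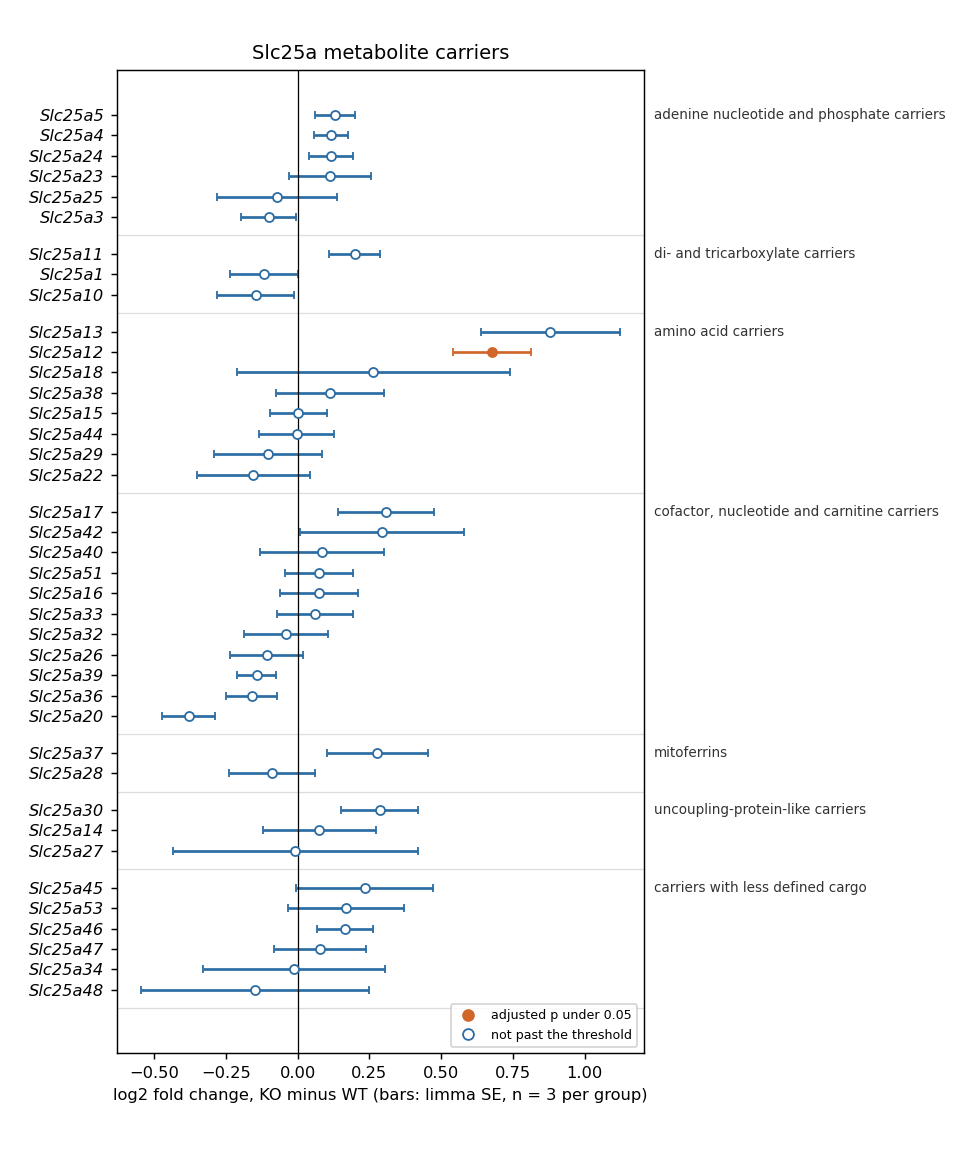
Log2 fold change, KO minus WT, of the 39 tested carriers, grouped by role, as limma estimates with SE bars (n = 3 per group). Only Slc25a12 is filled, for an adjusted p under 0.05, and apart from it, Slc25a13 at 0.88 and Slc25a20 at -0.38 all points lie between -0.16 and 0.31.

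The other 5 carriers were too dim to be tested. Slc25a31, Slc25a41 and Slc25a54 were below the limit on all 6 arrays. Slc25a2 and Slc25a35 were above it on 2 WT arrays and on no KO array, which is 1 array short of the filter that Slc25a18 just met. Slc25a2 read 44.4, 60.5 and 58.7 in WT against 38.8, 41.9 and 34.0 in KO, and Slc25a35 read 55.9, 44.6 and 68.3 in WT against 36.7, 45.7 and 19.3 in KO.

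Set side by side, import genes and carriers had medians of 0.11 and 0.07, against -0.04 over all tested genes, and 59.1% and 59.0% of their members had positive values against 43.8%. The middle 50% of the values ran from -0.14 to 0.29 for import genes and from -0.09 to 0.17 for carriers. Over all tested genes it ran from -0.21 to 0.13. Groups did not overlap for 11 of 22 import genes (50%), 9 with KO above and 2 with KO below, and for 8 of 39 carriers (20.5%), 5 above and 3 below, where the share over all tested genes was 26.3% (10.8% above, 15.5% below). An unadjusted p under 0.05 was reached by 11 import genes, 10 of them positive, and by 4 carriers (10.3%), 3 of them positive, against 20.3% of all tested genes, 8.54% as higher and 11.8% as lower. The median SE was 0.11 for import genes, 0.14 for carriers and 0.14 over all tested genes. The part of the lower noise of import genes in their shares was not tested, and no test of import genes against carriers was made. On the single KO arrays the median deviation of import genes from their WT mean was 0.13, 0.00086 and 0.18, and that of carriers 0.08, 0.06 and 0.04. The import genes were thus at the WT level in the median of KO array 2, with 9 members above and 10 below all WT arrays there. With Xist as a covariate, in a fit resting largely on KO array 2, the median of import genes was 0.0094, and that of carriers 0.06. The medians shifted when single arrays were left out. That of import genes was 0.037 without WT array 1 and 0.054 without KO array 3, and that of carriers 0.044 without WT array 1, 0.020 without WT array 3 and 0.019 without KO array 2.

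**Figure D4:**
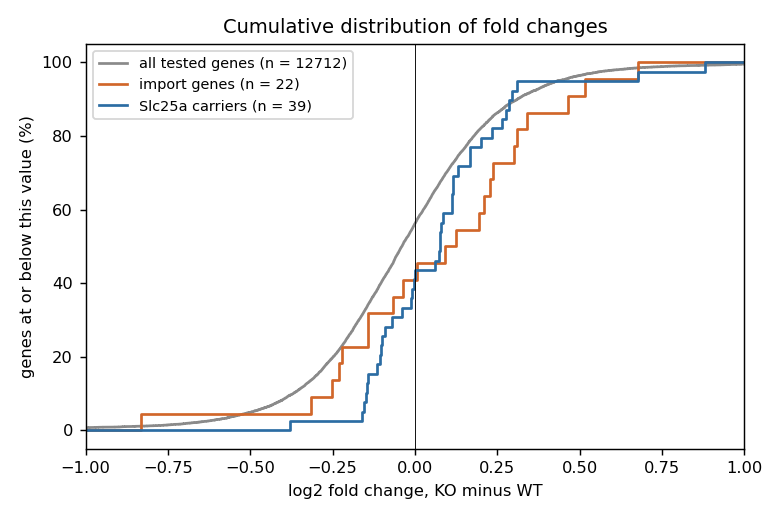
Cumulative share of genes (%) against log2 fold change, KO minus WT, for import genes (n = 22), carriers (n = 39) and all 12712 tested genes; the axis shows -1 to 1. The carrier curve is steep around its median of 0.07, and the import curve is wider, with a median of 0.11.

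Other genes of mitochondrial import and transport, from 2 lists drawn up by function, were read in the same fit. The lists were chosen with earlier results of these data known, so their counts are a description and not independent support. Of 20 tested import and sorting genes 2 rose, none fell and 15 were positive (75%, median 0.11), where 0.787% of all tested genes rose, 0.488% fell and 43.8% were positive (median -0.04). Immp1l, of the inner membrane peptidase, read 2028, 1939 and 2027 in WT against 2669, 3645 and 3390 in KO and rose by 0.68 (SE 0.11, adjusted p = 0.0360). Hspe1, the cochaperonin of the matrix, rose by 0.46 (SE 0.09, adjusted p = 0.0421), from 7563, 7764 and 9130 to 10728, 10806 and 12030. Of 9 further transport genes 2 rose and none fell (median 0.16), beside the same shares over all tested genes. Mpc1, of the pyruvate carrier, read 1407, 1209 and 1378 in WT against 1922, 3308 and 2359 in KO and rose by 0.89 (SE 0.17, adjusted p = 0.0378). Mtch2, an outer membrane insertase related to the Slc25a family, rose by 0.72 (SE 0.11, adjusted p = 0.0344), from 1935, 1839 and 1843 to 2579, 3460 and 3319. These 4 calls were lost without WT array 1, without WT array 2 and with probe sets averaged, where 0 genes of the whole series passed limma's adjusted threshold.

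Agreement between probe sets of a gene was checked for the 30 members with more than 1 tested probe set. Of 59 further probe sets 44 had the sign of the chosen one, 19 of 25 among import genes and 25 of 34 among carriers. The count is by sign alone and takes in values near 0. Timm44, Timm10b and Slc25a36 gave the same sign throughout, and Tomm22 was the only member with non-overlapping groups in both directions.

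**Figure D5:**
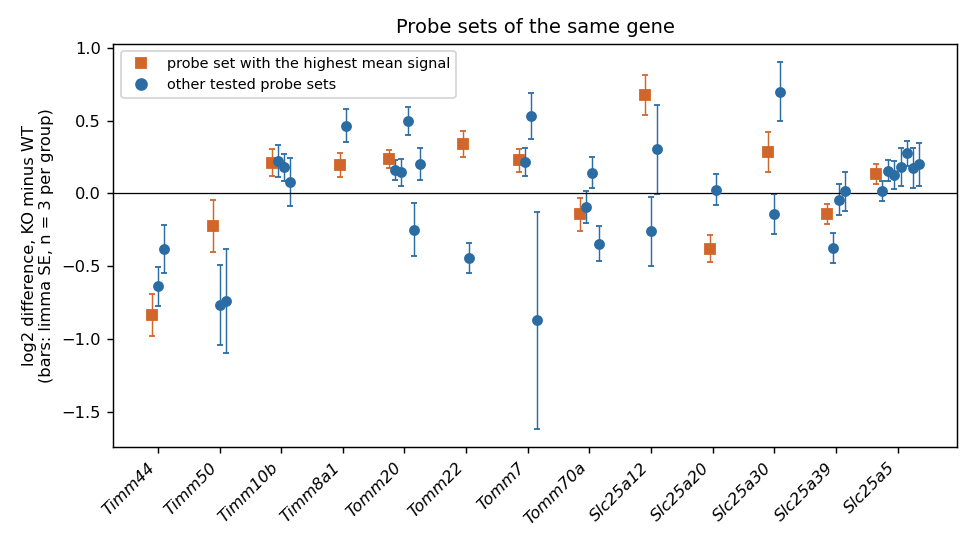
Log2 difference, KO minus WT, of each tested probe set for 13 members, with limma SE bars (n = 3 per group); squares mark the probe set with the highest mean signal and circles the others. Probe sets of Timm44 all lie below 0, those of Slc25a5 all above it, and those of Tomm22 lie on opposite sides at 0.34 and -0.44.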

How the data were processed

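The 6 arrays of E10.5 mouse heart RNA, 3 WT and 3 KO, were assigned to groups from the labelled genotype. The authors deposited a linear intensity for each probe set. The submitters' processing notes name MAS5 and Affymetrix Expression Console, with no version. MAS5 scales each array, and after trimming 2% at each end the mean was 500 on every array. No further scaling was applied. Noise grows at low MAS5 signals, so a low-signal limit was set at each array's 40th percentile (44.5 to 52.8), a working choice. The number of arrays, 3 per group, limits the precision.

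The 64 control probe sets were left out. Of the other 45037, 34945 had 1 symbol, 932 several and 9160 none, and 4 probe sets that pair a member with another gene were not used. For each gene the probe set with the highest mean log2 signal was taken and tested if above the limit on at least 3 of 6 arrays. Linear models in limma 3.58.1 (R 4.3.3), with eBayes and its trend option, gave p-values, adjusted by Benjamini-Hochberg over all 12712 genes, and the procedure was tested on simulated data. Every member may be named. Values on every array are given for members past the test, the 2 with the smallest p in each role, and members whose tested probe sets differ in sign. The members, roles, lists and tests were chosen with earlier results of these data known. Alternatives covered scaling, filter, floor, probe set choice, variance model, array weights, a replicate block, Xist as a covariate, the threshold and leaving out each array. Centring on tested genes and KO array 2 alone were added after seeing the data. Paralog pairs were compared with scipy 1.17.1 in Python 3.11.15, and figures were drawn with matplotlib 3.10.9.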

Additional observations from a re-analysis of the deposited data

How the results depend on the processing

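Over 21 alternatives, 75 of 1269 values of single members changed sign, in 28 members. Of these members only Tomm22 had an unadjusted p under 0.05 in the reported fit, and its value was -0.053 with probe sets averaged (adjusted p = 0.784). Timm44, Timm17a, Timm21 and Slc25a12 kept their sign in all 21, and passed in 13, 11, 11 and 11. Calls over all genes, 162, became 83 with median centring, 312 with centring on tested genes, 1 without the filter, 291 with the stricter filter, 0 with probe sets averaged, 1 without the trend, 542 with array weights, 6 with Xist as a covariate, 805 at an adjusted p of 0.1, 1557 with KO array 2 alone and 0 to 917 leaving out 1 array. The single KO array is assumed to vary like the others. The number of import genes called, 3, became 0 without the filter, with probe sets averaged, without the trend and with the Xist covariate, 5 with array weights, 6 at 0.1, 6 with centring on tested genes, 7 with KO array 2 alone and 0 to 5 without 1 array. The number of carriers called, 1, became 0 under the same 4 settings and with every probe set on its own, 3 with array weights, at 0.1 and with KO array 2 alone, and 0 to 3 without 1 array. With probe sets averaged 0 genes passed by limma's adjusted p.

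With the Xist covariate, in a fit resting largely on KO array 2, the median of import genes was 0.0094. It was 0.00086 with KO array 2 alone and 0.037 to 0.146 without 1 array. That of carriers was 0.13 and 0.12 with the 2 centrings, 0.10 with probe sets averaged, 0.029 with array weights and 0.019 to 0.083 without 1 array. The cause of these shifts was not tested. No label says whether the replicate numbers mark the littermate pairs, so the reported fit has no block. Deviations of same-numbered arrays from their group means correlated at r = 0.018, 0.057 and 0.015 across genes. Differently numbered arrays were not compared, so these values cannot show whether the numbers mark the pairs. With the replicate block 189 genes, 4 import genes and 1 carrier passed, and Timm8b was the added call (adjusted p = 0.0459). Signal over background limits the dim carriers Slc25a18, Slc25a27 and Slc25a48.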

Other observations

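Paralogs were compared within each array as the log2 signal of one minus that of the other, in 6 pairs chosen with earlier results of these data known. Of the pair genes with a promoter entry, Timm17b, Timm8a1 and Slc25a5 lie on the X chromosome. The part of sex in these ratios was not tested. Timm17a over Timm17b was 0.40 ± 0.14 (SD, n = 3) for WT arrays and 1.01 ± 0.16 (SD, n = 3) for KO arrays, a change of 0.61 without overlap between the groups (two-sided exact permutation p = 0.1, the smallest that 3 against 3 arrays can give, 0.4 after Benjamini-Hochberg adjustment). The other pairs overlapped. Slc25a4 over Slc25a5 moved by -0.01, Slc25a12 over Slc25a13 by -0.20, Slc25a37 over Slc25a28 by 0.37, Timm8a1 over Timm8b by -0.32 and Tomm40 over Tomm40l by -0.28, with exact permutation p from 0.2 to 0.6.

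KO array 2 gave the lowest of the 3 KO signals for 14 of 22 import genes (63.6%), among them Timm44, Timm50, Tomm40 and Tomm70a, for 13 of 39 carriers (33.3%) and for 37.1% of all tested genes. KO array 2 is also the KO array with high Xist and with the highest macrophage marker sum, and the part of either was not tested.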
